A study of Mus musculus with 26 samples.

Results

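The mitochondrial ribosomal protein genes were followed in CD8+ T cells carrying the leukemia-specific T cell receptor Tg101 (TCR Tg101). Members were the protein-coding genes whose GENCODE mouse symbol starts with Mrpl or Mrps and a digit, which gave 78 of 35944 annotated genes. All 78 passed the filter on low counts, among 15465 genes tested. By position in the known mitoribosome structure, 51 belong to the large subunit and 26 to the small subunit. The last, Mrps36, carries a ribosomal name but is now known as a subunit of the 2-oxoglutarate dehydrogenase complex.

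Mitoribosomes sit in the mitochondrial matrix and translate the few messages encoded by mitochondrial DNA, all of which specify membrane subunits of the oxidative phosphorylation complexes. Their ribosomal RNAs come from mitochondrial DNA, whereas every protein subunit is encoded in the nucleus, made in the cytosol and imported. Compared with the bacterial ribosome, the mitoribosome has lost RNA and gained proteins, so its proteins fall into bacterial homologues and mitochondria-specific additions. T cells that leave quiescence after antigen encounter are known to expand their mitochondrial mass and translation machinery.

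The transgene encodes the receptor chains of 1 CD8+ T cell clone (T15) and was kept on a Rag2-/- background, so the cells share 1 receptor. The samples are labelled as C57BL/6, wild type and 6 weeks old. CellTrace Violet (CTV)-labelled naive cells were transferred into hosts that received C1498 leukemia cells intravenously on the next day. For such transfers the paper names B6.SJL or C57BL/6 hosts, and its text does not say which served for sequencing. The T cells were sorted afterwards and sequenced as bulk RNA. The 3 control libraries came from spleen of leukemia-free mice: controls 1 and 2 were naive cells at day 0, and control 3 came from untreated mice at day 18. From leukemia-bearing mice came 1 undivided library (CTVhi cells at day 18, labelled as spleen), 2 spleen libraries at day 7, 1 spleen library at day 14, 2 early liver libraries at day 7, 3 mid liver libraries at days 13, 13 and 14, and 2 late liver libraries at days 18 and 16. Leukemia, tissue and time therefore change together between control and liver groups and cannot be told apart. In bulk libraries, fewer cells of a type and less RNA per cell cannot be told apart either.

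The 14 libraries held 22918996 to 71358287 estimated counts each. Library titles carry one of 2 prefixes: TG (control 1, mid liver 1 and late liver 1) and XC (the other 11). This prefix was taken as the batch and enters every model as a term. Summed levels of 8 T cell markers lay between 4144 and 9282 CPM (counts scaled to a common library size and for library composition) in every library, which fits the sorted cell type. Hepatocyte markers (7 of 8 listed genes could be matched) summed to 0.371 to 0.824 CPM in controls, where Serpina1c was at 0 in every library, to 188, 20.9 and 3.73 CPM in mid liver 1, 2 and 3, and to 313 and 69.7 CPM in late liver 1 and 2. Erythroid markers summed to 5220 and 20346 CPM in controls 1 and 2 and to 136 CPM in control 3. Myeloid markers summed to 484 and 106 CPM in controls 1 and 2 and to 10.5 CPM in control 3. Their sum was 12.1 to 40.4 CPM in mid liver and 24.5 to 49.6 CPM in late liver. The part of these other cells in the results below was not tested. The labels do not say whether libraries came from separate mice, so p-values measure the spread between these libraries, which may be technical. All comparisons with control share the same 3 control libraries.

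Summed over the 78 members, the level within each series was highest in mid or late liver. Within the TG series, the sum was 4007 CPM in control 1, 10311 CPM in mid liver 1 and 10818 CPM in late liver 1. Within the XC series, controls 2 and 3 stood at 3087 and 3200 CPM, mid liver 2 and 3 at 4388 and 5028 CPM, and late liver 2 at 4852 CPM. The direction was thus the same in both series but the size was not: late liver lay 2.70-fold above control in TG and 1.54-fold in XC, and mid liver 2.57-fold and 1.5-fold. The factors for library composition, of which a lower one raises CPM, also differed. They were 1.03, 0.816 and 0.723 in control 1, mid liver 1 and late liver 1. In XC they were 1.03 and 1.10 in controls, 0.979 and 0.947 in mid liver and 0.951 in late liver. The part of this scaling in the sizes was not tested. The remaining XC libraries gave 3676 CPM for undivided cells, 3079 and 2820 CPM for day 7 spleen, 3851 CPM for day 14 spleen, and 4492 and 2904 CPM for early liver 1 and 2. The hepatocyte marker sum was highest in late liver 1 and mid liver 1, the libraries with the highest member sums, and lower in mid liver 3 than in mid liver 2, where the member sums had the opposite order. The early liver libraries stood apart from each other, with the first in the range of mid liver and the second below every control.

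**Figure D1:**
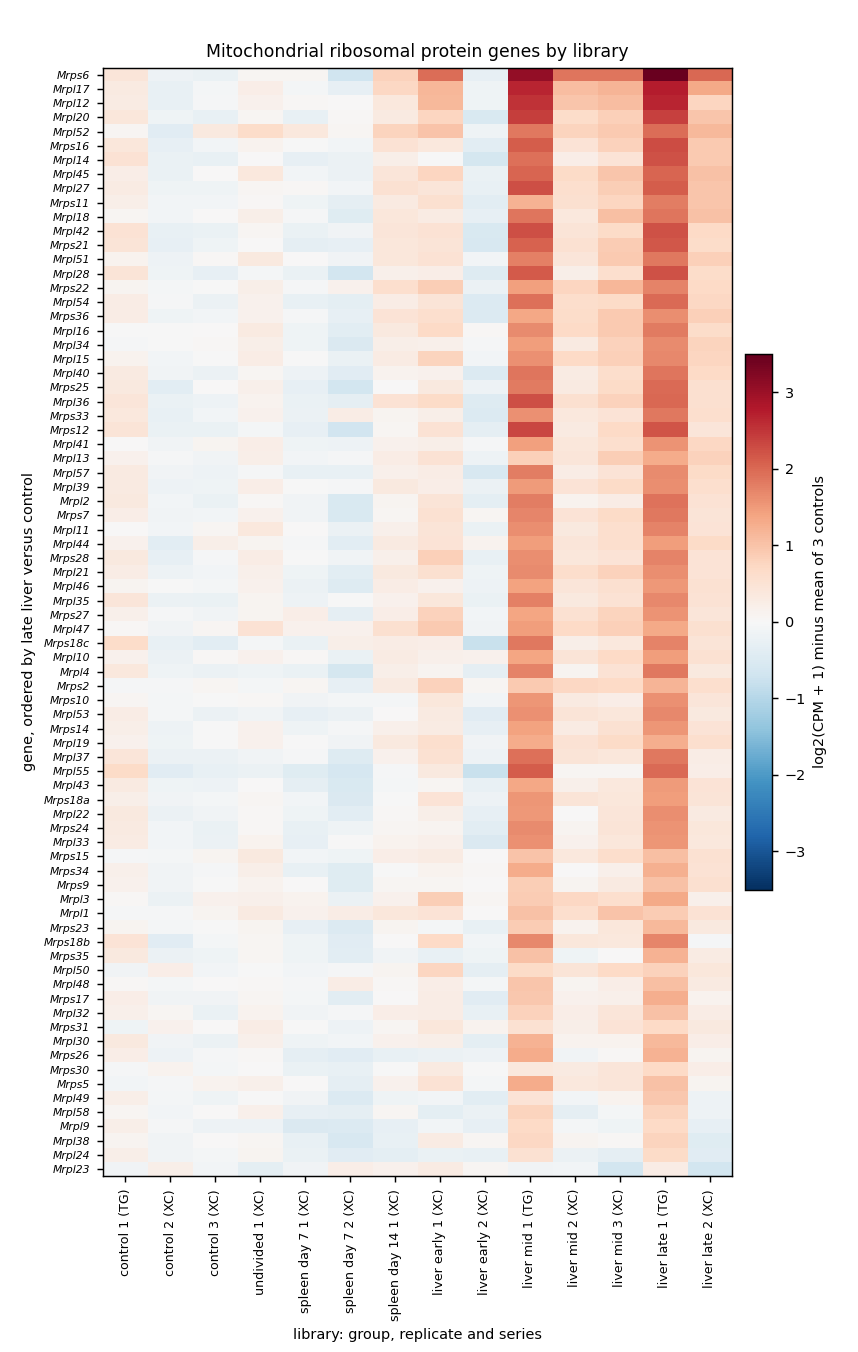
Heat map of the 78 genes (y axis, ordered by the late liver change) in the 14 libraries (x axis), coloured by log2(CPM + 1) minus the mean of the 3 controls. The TG mid and late liver libraries are the darkest columns, and the XC mid and late liver libraries and early liver 1 are paler in the same direction. In early liver 2 and day 7 spleen most members lie below the control mean.

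Late liver was compared with control to ask how the machinery stood in TCR Tg101 after the longest exposure to leukemia. Of the 78 members, 60 rose and none fell, where 19.9% of all tested genes rose and 14.3% fell (edgeR quasi-likelihood test, Benjamini-Hochberg adjusted p under 0.05). The median log2 fold change of the members was 0.91, a 1.88-fold higher level, against -0.04 for all tested genes, and 77 of 78 were above 0 against 48.5% of all genes. In 60 members both late liver libraries were above every control, against 27.9% of all genes, and in none were both below, against 28.1%. Within series, where no test is possible in TG with 1 library an arm, all 78 were higher in late liver 1 than in control 1 (48.9% of all genes) with a median log2 difference of 1.35. In XC, 71 members were higher in late liver 2 than in both controls (42.3% of all genes), and the median log2 difference was 0.62.

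The number of calls depended on single libraries. With the 11 XC libraries alone, no member passed (smallest adjusted p = 0.105 by edgeR) and 0.0549% of all genes rose, while 26 passed an unadjusted p of 0.05 against 13.6% of all genes. Leaving out control 1, late liver 1 or late liver 2 left 5, 1 and 0 calls. DESeq2 on the same 14 libraries called 60. For DESeq2 and for the fits without 1 library, the share of all genes called is not given here. How far their counts are particular to the members was therefore not assessed.

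The largest change belonged to Mrps6, a small-subunit protein with a bacterial homologue (ENSMUSG00000039680.10, chr16:92058270-92112227, plus strand, GRCm38). Its controls held 35.3, 22.8 and 22 CPM, day 7 spleen 27.7 and 15.7 CPM, undivided cells 27.4 CPM and day 14 spleen 46.3 CPM. In liver it stood at 104 and 21.3 CPM in early 1 and 2, at 227, 98.7 and 98.6 CPM in mid 1, 2 and 3, and at 297 and 108 CPM in late 1 and 2. Every mid and late liver library was above every control, day 7 spleen overlapped the controls, and the early libraries fell on opposite sides of them. The log2 fold change of late liver over control was 2.60 ± 0.55 (SE, edgeR adjusted p = 0.0108), and the log2 difference was 3.05 within TG and 2.25 within XC.

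Mrpl17, which lines the exit of the tunnel through which the new chain leaves the large subunit (chr7:105803206-105811099, minus strand), followed the same order. Controls held 47.4, 31.6 and 35.8 CPM, mid liver 246, 81.2 and 88 CPM, and late liver 261 and 96.7 CPM. Early liver 1 and day 14 spleen, at 85.6 and 62.5 CPM, were also above every control, whereas early liver 2 was at 33.8 CPM. Late liver exceeded control by 1.86 ± 0.37 on the log2 scale (SE, edgeR adjusted p = 0.00765).

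The stalk of the large subunit recruits translation factors, and its 3 members all rose. Mrpl12, which forms the flexible stalk arms and is also known to bind the mitochondrial RNA polymerase (chr11:120484613-120489065, plus strand), was at 74.4, 51.0 and 59.2 CPM in controls, at 357, 121 and 129 CPM in mid liver and at 389 and 103 CPM in late liver. Early liver 1, at 135 CPM, reached the XC mid liver libraries, and early liver 2, at 54.5 CPM, lay within the controls. The late change was 1.5 ± 0.40 (log2, SE, edgeR adjusted p = 0.0198). The base proteins Mrpl10 and Mrpl11 changed by 0.89 ± 0.21 and 0.96 ± 0.31 (log2, SE, edgeR adjusted p = 0.0123 and 0.0389).

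Mrpl14, a large-subunit protein with a bacterial homologue (chr17:45686322-45698495, plus strand), had the smallest adjusted p among the members. It stood at 31.5, 18.5 and 18.4 CPM in controls, 86.6, 26.0 and 31.4 CPM in mid liver, and 107 and 43.0 CPM in late liver. Unlike Mrps6 and Mrpl17, its mid liver libraries overlapped the controls, since both XC mid liver libraries lay below the TG control. The log2 change was 1.40 ± 0.25 in late liver (SE, edgeR adjusted p = 0.00556) and 0.91 ± 0.22 in mid liver (adjusted p = 0.0177).

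Around the exit tunnel, 6 of 8 members rose, with a median log2 change of 0.93. Mrpl45, which anchors the mitoribosome to the inner membrane (chr11:97315716-97329920, plus strand), was at 34.2, 24.5 and 29.5 CPM in controls and at 122 and 60.9 CPM in late liver, with a change of 1.40 ± 0.30 (log2, SE, edgeR adjusted p = 0.00967). Mrpl44, a protein with a ribonuclease III fold, changed by 0.96 ± 0.25 (adjusted p = 0.0183). The exceptions at this site were Mrpl23 and Mrpl24.

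Other large increases were those of Mrpl20 (1.46 ± 0.36, log2 and SE), Mrpl52 (1.41 ± 0.37), Mrps16 (1.41 ± 0.28), Mrpl27 (1.37 ± 0.28) and Mrps11 (1.32 ± 0.27), with edgeR adjusted p between 0.00728 and 0.018. Mrps12, the protein of the decoding site whose bacterial counterpart is the target of streptomycin resistance mutations, was at 53.2, 32.3 and 32.6 CPM in controls, 197, 48.2 and 63.1 CPM in mid liver and 178 and 51.5 CPM in late liver. The XC liver values of Mrps12 did not all clear control 1, although they cleared both XC controls, and its log2 change was 1.06 ± 0.32 (SE, edgeR adjusted p = 0.0304). Mammals have 3 homologues of bacterial S18. Mrps18a, which sits in the large subunit, and Mrps18c, in the small subunit, rose by 0.82 ± 0.26 and 0.90 ± 0.29 (log2, SE, edgeR adjusted p = 0.0345 and 0.0368), while Mrps18b did not pass (0.65 ± 0.29, adjusted p = 0.106). For Mrps30, a large-subunit protein despite its name, the value was 0.46 ± 0.19 (adjusted p = 0.0809), and Mrpl37 rose by 0.84 ± 0.28 (adjusted p = 0.0426). Mrps36 rose by 1.16 ± 0.28 (adjusted p = 0.0133).

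Both subunits and both evolutionary classes held members that rose, beside 19.9% of all tested genes. In the large subunit 38 of 51 members rose with a median log2 change of 0.93, and in the small subunit 21 of 26 with a median of 0.88. Bacterial homologues gave 37 of 45 with a median of 0.93 and mitochondria-specific proteins 22 of 31 with a median of 0.88. The central protuberance gave 3 of 5. Differences between these classes were not tested.

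**Figure D2:**
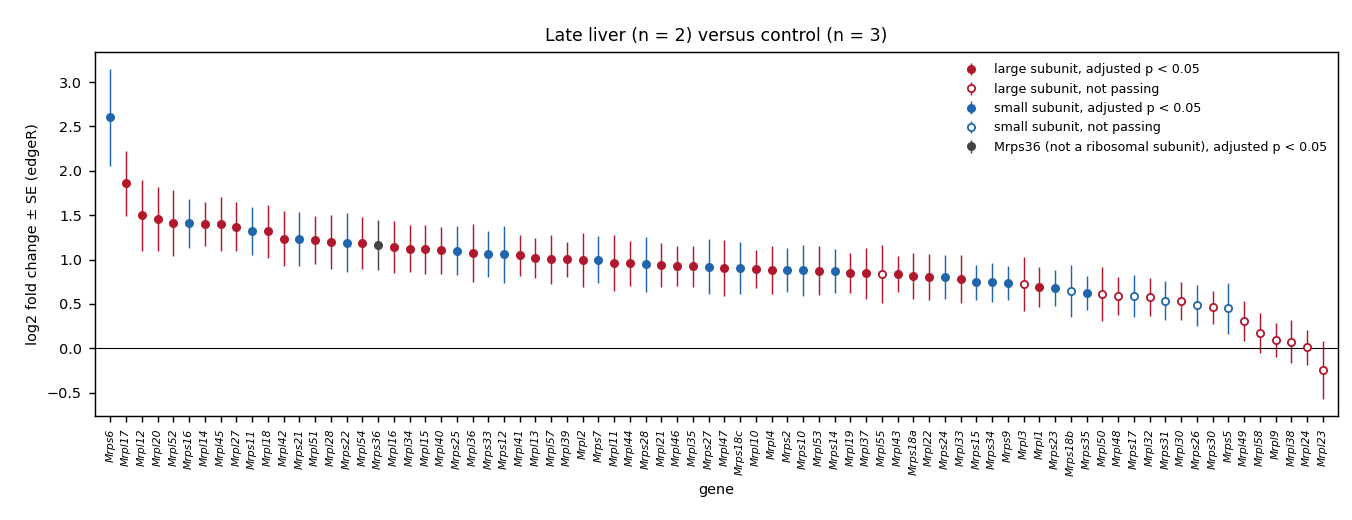
Log2 fold change of late liver (n = 2) over control (n = 3) for each of the 78 genes (x axis), with bars for the SE, red for the large and blue for the small subunit, and filled points for adjusted p under 0.05. The 60 filled points reach from Mrps6 at 2.60 down, no filled point lies below 0, and Mrpl23 alone has a negative value.

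The 18 members that did not pass were Mrpl55, Mrpl3, Mrps18b, Mrpl50, Mrpl48, Mrps17, Mrpl32, Mrps31, Mrpl30, Mrps26, Mrps30, Mrps5, Mrpl49, Mrpl58, Mrpl9, Mrpl38, Mrpl24 and Mrpl23, in falling order from 0.84 to -0.25. Passing depended on spread as well as on size: Mrpl55, at 0.84 ± 0.33, did not pass (edgeR adjusted p = 0.069), and Mrps35, the smallest value that passed, was at 0.62 ± 0.19 (adjusted p = 0.0301). Mrpl55 was at 45 CPM in the TG control against 20.6 and 22.9 CPM in the XC controls, one of the widest control ranges in the heat map. The last 5 had the smallest values of all members. Mrpl24, a bacterial homologue that starts large-subunit folding in bacteria (chr3:87919506-87923672, plus strand), was at 98.8, 78.7 and 81.8 CPM in controls and at 137 and 64.5 CPM in late liver. The TG library was above its control and the XC library below both of its controls, and the change was 0.01 ± 0.20 (log2, SE, edgeR adjusted p = 0.967). Mrpl58, a peptidyl-tRNA hydrolase that rescues stalled mitoribosomes as well as being a structural subunit, was at 84.1, 73.8 and 80.6 CPM in controls and 136 and 70.4 CPM in late liver (0.17 ± 0.23, adjusted p = 0.57). For Mrpl9 and Mrpl38 the values were 0.10 ± 0.19 and 0.08 ± 0.24 (adjusted p = 0.709 and 0.819). Mrpl23 (chr7:142532686-142540747, plus strand) was at 11.8, 15.1 and 11.9 CPM in controls, 11.6, 12.0 and 7.93 CPM in mid liver and 15.4 and 7.88 CPM in late liver (-0.25 ± 0.33, adjusted p = 0.571).

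**Figure D3:**
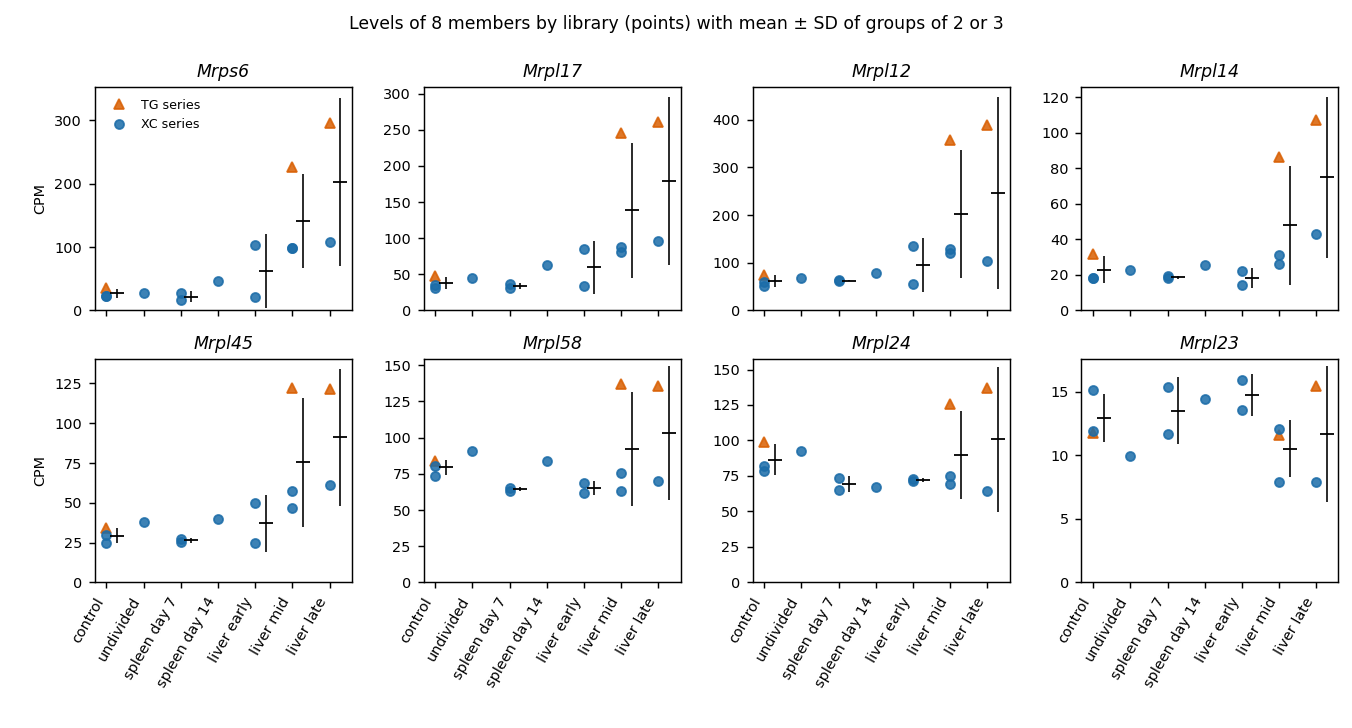
CPM (y axis, from 0) of 8 members in each group (x axis), with a triangle for each TG library, a circle for each XC library, and the mean ± SD beside groups of 2 or 3. Mrps6, Mrpl17, Mrpl12, Mrpl14 and Mrpl45 stand higher in late liver than in every control, whereas late liver overlaps or straddles the controls for Mrpl58, Mrpl24 and Mrpl23.

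Per transcript length, the members differed widely in the controls. In the deposited TPM, a unit scaled for transcript length and here summed per gene, Mrpl33 was highest at 147 ± 10.6 (SD, n = 3), followed by Mrpl58 at 134 ± 16.9 and Mrps24 at 110 ± 6.17. The lowest were Mrpl1 at 8.05 ± 1.24, Mrpl23 at 8.18 ± 1.04 and Mrpl47 at 9.53 ± 1.63. Mrpl33, Mrps24, Mrpl1 and Mrpl47 rose in late liver by 0.78, 0.81, 0.69 and 0.90 on the log2 CPM scale (edgeR adjusted p between 0.0311 and 0.0483), so both ends of this order held members that rose and members that did not pass.

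Part of the reads of these genes was assigned to annotated retained-intron transcripts, non-coding models that keep an intron of the gene. Of the 78 members, 48 had such counts in controls and 24 had more than 10% of their counts there. The examples that follow were chosen after their values were seen. Mrps10 had 31.9%, 44.7% and 44.4% of its counts on retained-intron transcripts in controls, 8.95%, 20.5% and 22.7% in mid liver, and 6.37% and 12.8% in late liver. Mrpl38 had 81.5%, 64.2% and 67.9% in controls and 32.8% and 42.3% in late liver, and Mrpl23 had 64.3%, 75.1% and 70.8% and then 25.7% and 34.9%. In each of these genes the late liver libraries were below all controls. Mrps24, Mrps26 and Mrpl57 did not share this shift: 94.9%, 87.0% and 80.8% of their counts in controls (means, n = 3) and 95.8%, 91.7% and 81.1% in late liver (n = 2) were on retained-intron models.

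Over the 24 members above 10%, the share was lower in every late liver library than in every control for 15, where the same held for 49.9% of the 3928 tested genes above 10%. The corresponding count in mid liver was 14, against 32.7%. Summed over all members, 13.5% to 15.2% of counts in controls, 9.29% to 10.5% in mid liver and 8.16% to 9.56% in late liver were on retained-intron transcripts. Summed over all genes, the range was 9.12% to 9.58% in controls and 5.43% to 6.63% in late liver, so the members moved in the direction of the whole libraries.

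When only coding transcripts were summed, an alternative chosen after the data were seen, 45 of 78 members rose in late liver, against 20.1% of 13077 tested genes, with a median log2 change of 0.87. On this scale Mrpl38 stood at 1.07 ± 0.43 and Mrpl23 at 0.75 ± 0.37 (log2, SE, edgeR adjusted p = 0.0747 and 0.129). Their values over all transcripts had been 0.08 and -0.25. Mrpl24 and Mrpl9 stayed near 0, at -0.025 and -0.021, and Mrpl58 was at 0.23. Other members moved the other way. Mrpl3 went from 0.73 over all transcripts to -0.73 ± 0.32 and Mrps26 from 0.48 to -0.21 ± 0.32, both with a change of sign and neither passing (edgeR adjusted p = 0.093 and 0.615). Mrpl51 went from 1.22 to 0.07 ± 0.29 and Mrps24 from 0.81 to 0.34 ± 0.44, and both lost their call (adjusted p = 0.861 and 0.548).

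**Figure D4:**
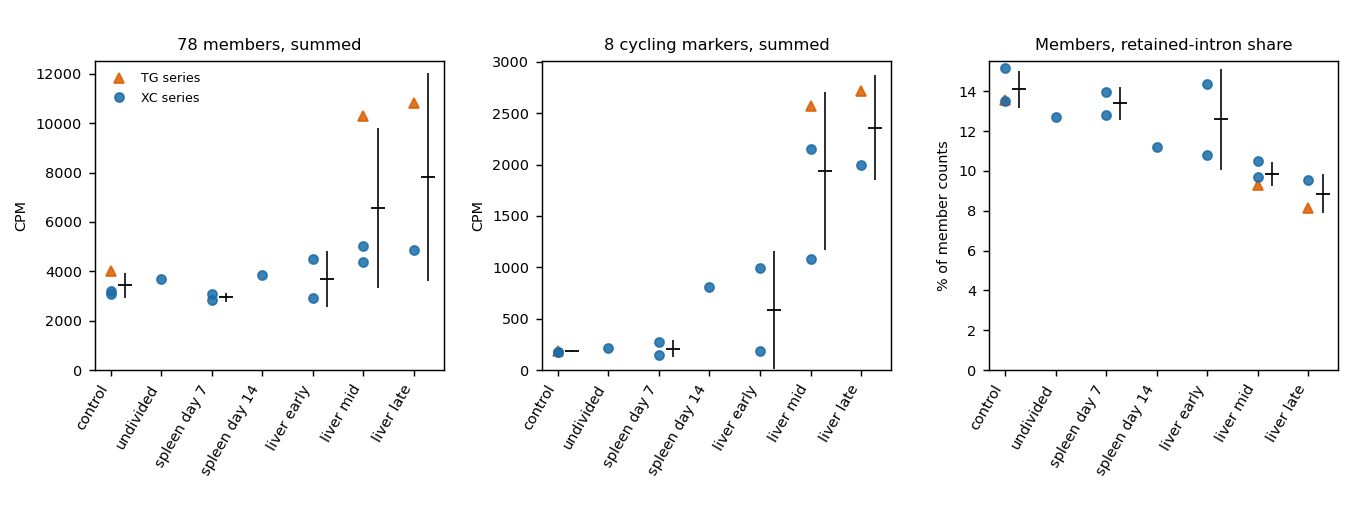
Summed CPM of the 78 members (left), summed CPM of 8 cycling markers (middle) and the percentage of the members' counts on retained-intron transcripts (right) by group (x axis), with 1 point per library and the mean ± SD beside groups of 2 or 3. Member and marker sums are highest in the TG mid and late liver libraries, and the retained-intron share falls to 8.16% in late liver 1.

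In mid liver 55 of 78 members rose and none fell, where 17.5% of all tested genes rose and 11.8% fell. The median log2 change was 0.83 against -0.07 for all genes, and 77 of 78 were above 0 against 47.1% of all genes. Both series again gave higher levels: 77 members were higher in mid liver 1 than in control 1 (46.8% of all genes, median log2 difference 1.33), and 71 were higher in both XC mid liver libraries than in both XC controls (34.5% of all genes, median 0.61). All 3 mid liver libraries were above all 3 controls for 48 members, against 21% of all genes. With fewer libraries the calls were lost here too: in XC alone none passed (smallest edgeR adjusted p = 0.15, with 28 at an unadjusted p under 0.05 against 13.9% of genes), and leaving out control 1, control 2, mid liver 1 or mid liver 3 left 0 calls each. Shares of all genes called in the fits without 1 library are not given here either. Mrps6 rose by 2.31 ± 0.50 and Mrpl17 by 1.66 ± 0.33 (log2, SE, edgeR adjusted p = 0.016 and 0.0138).

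Late and mid liver differed little. No member passed in late against mid liver by edgeR or DESeq2 after adjustment, and by edgeR none had an unadjusted p under 0.05, where 2.55% of all genes were higher and 2.41% lower. The largest log2 differences were 0.49 upward and -0.23 downward (median 0.11). With standard errors of this size, a p that misses the threshold does not show equal levels.

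Early liver gave no call after adjustment by edgeR or DESeq2 (smallest edgeR adjusted p = 0.41), nor did any gene of the 15465. At an unadjusted p under 0.05, 8 members were higher, against 7.58% of all genes, and none lower, against 3.25%. Taken singly, early liver 1 was above every control in 51 members (30.8% of all genes) and below in 5 (32.2%). Early liver 2 was above in 1 (23.8%) and below in 46 (26.2%). Without early liver 2, 18 members rose (8.89% of all genes) with a median log2 change of 0.66, where the lone library is assumed to vary like the other groups.

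In spleen cells of leukemia-bearing mice at day 7, no member passed by edgeR or DESeq2 and none had an unadjusted p under 0.05. There 5.5% of all genes were higher and 0.789% lower, and the median log2 change of the members in the model was 0.05. Taken singly, without the model, 30 and 48 members were below every control in the 2 libraries (21.9% and 27.9% of all genes) and 4 and 5 above (22.1% and 28.7%). At day 14 the single spleen library was above every control in 35 members (28.7% of all genes) and below in 4 (22.6%). No member passed adjustment by edgeR or DESeq2 there, where 0.00647% of all genes fell, 6 were higher at an unadjusted p under 0.05 (4.18% of all genes), and the median log2 change was 0.46. Mid liver against that day 14 spleen library gave no call among the members by edgeR or DESeq2, where 0.00647% of all genes rose, and none at an unadjusted p under 0.05, where 2.23% of all genes were higher and 3.58% lower. The median was 0.37. Undivided cells were above every control in 21 members (21.4% of all genes), and below in 2 (18.7%). No member passed by edgeR or DESeq2, and none had an unadjusted p under 0.05, where 0.181% of all genes were higher and 0.944% lower. The median log2 change of undivided cells was 0.37 in the model, which includes the series term, and 0.11 as a plain difference from the mean of all controls. On the plain scale, XC controls 2 and 3 stood at -0.13 and -0.09. Other groups found only in XC also differed between the scales. Plain medians were -0.14 and -0.29 in the day 7 spleen libraries, 0.18 in day 14 spleen, and 0.39 and -0.22 in early liver 1 and 2. The model medians of these groups were 0.05, 0.46 and 0.35. The model holds a single series term for all groups, whereas the plain gap between the series differed by group. TG medians were 0.22 in control 1, 1.54 in mid liver 1 and 1.65 in late liver 1. The XC values were 0.38 and 0.59 in mid liver 2 and 3, and 0.52 in late liver 2. Groups found only in XC are compared with the controls through this term, so their model medians depend on it. The size of its part in these gaps was not tested.

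Member levels ran beside those of cycling markers. Within the 11 XC libraries, the 5 with the highest member sum (3851 to 5028 CPM) were the same 5 libraries with the highest cycling marker sum (812 to 2155 CPM), namely early liver 1, day 14 spleen, mid liver 2 and 3, and late liver 2. The other 6 held 2820 to 3676 CPM of members and 150 to 270 CPM of markers. In TG the markers summed to 187 CPM in control 1, 2569 CPM in mid liver 1 and 2718 CPM in late liver 1. All 8 markers, among them Mki67 and Top2a, passed in late and in mid liver. The part of cycling in the member levels was not tested.

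Cytosolic ribosomal protein genes, a related family, had a smaller median change. Of 80 such genes 78 were tested. In late liver 20 (25.6%) rose and none fell, where 19.9% of all tested genes rose and 14.3% fell. The median log2 change was 0.45 against 0.91 for the mitochondrial members. Most cytosolic genes also lay above 0, 73 of 78 (93.6%) against 48.5% of all genes. In mid liver 11 (14.1%) rose and 1 fell, with a median of 0.23, where 17.5% of all genes rose and 11.8% fell. There 64 of 78 (82.1%) were above 0 against 47.1% of all genes. In undivided cells both families had a median of 0.37 in the model, and 0.11 (mitochondrial) and 0.10 (cytosolic) as plain differences from the mean of all controls. The difference between the families was not tested.

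Of the 5 mitoribosomal proteins with other names, 3 rose and none fell in late liver. Gadd45gip1, a large-subunit protein, was at 41.1, 42.9 and 41.8 CPM in controls and 135 and 63.6 CPM in late liver. It rose by 1.02 ± 0.30 (log2, SE, edgeR adjusted p = 0.0253). Aurkaip1 and the GTP-binding protein Dap3, both of the small subunit, rose by 0.87 ± 0.24 and 0.74 ± 0.19 (adjusted p = 0.0222 and 0.0158). Chchd1 (0.73 ± 0.32, adjusted p = 0.1) and Ptcd3 (0.08 ± 0.19, adjusted p = 0.763), also of the small subunit, did not pass.

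Genes that assemble or serve the mitoribosome gave shares of calls nearer to those of all tested genes in late liver, of which 19.9% rose and 14.3% fell. Of 26 assembly factors 4 rose and 1 fell, with a median log2 change of 0.28. Ddx28, a DEAD-box helicase of large-subunit assembly, was at 11, 14.8 and 12.3 CPM in controls and at 53.3 and 38.5 CPM in late liver, the largest change on this list (1.86 ± 0.31, SE, edgeR adjusted p = 0.0049). Ybey, a homologue of a bacterial rRNA endonuclease, and Rpusd3, a pseudouridine synthase family protein, rose by 1.04 ± 0.33 and 0.89 ± 0.29 (adjusted p = 0.0335 and 0.0398). Mettl17, a methyltransferase-like factor of the small subunit, fell by 0.85 ± 0.26 on the log2 scale, from 67.6, 63.3 and 72.2 CPM to 51.0 and 28.5 CPM (adjusted p = 0.029).

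Among 19 translation factors 5 rose and none fell, with a median of 0.37. Tsfm, the mitochondrial elongation factor Ts, rose by 1.54 ± 0.37, Slirp, a partner of Lrpprc in mitochondrial mRNA stability, by 1.42 ± 0.35, the recycling factor Mrrf by 0.88 ± 0.21, and the membrane insertase Oxa1l by 0.65 ± 0.20 (log2, SE, edgeR adjusted p between 0.0131 and 0.0289). Of 17 mitochondrial tRNA synthetases 2 rose and none fell, with a median of 0.18. Rars2, the arginyl-tRNA synthetase, rose by 0.69 ± 0.23 (log2, SE, edgeR adjusted p = 0.0411). Of 13 genes that copy or transcribe mitochondrial DNA, Mgme1, an exonuclease, and Tefm, the transcription elongation factor, rose by 1.07 ± 0.23 and 0.91 ± 0.26, and Mterf1a fell by 0.92 ± 0.28 (adjusted p = 0.00894, 0.0244 and 0.0312).

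The 13 proteins encoded by mitochondrial DNA, the products of this machinery, were not measured. Their messages showed no call in late or mid liver, with median log2 changes of -0.05 and -0.11. Their sum split by series and not by group: 16570, 15381 and 14845 CPM in the TG control, mid and late liver libraries, and 4844 to 8617 CPM across the XC libraries.

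**Figure D5:**
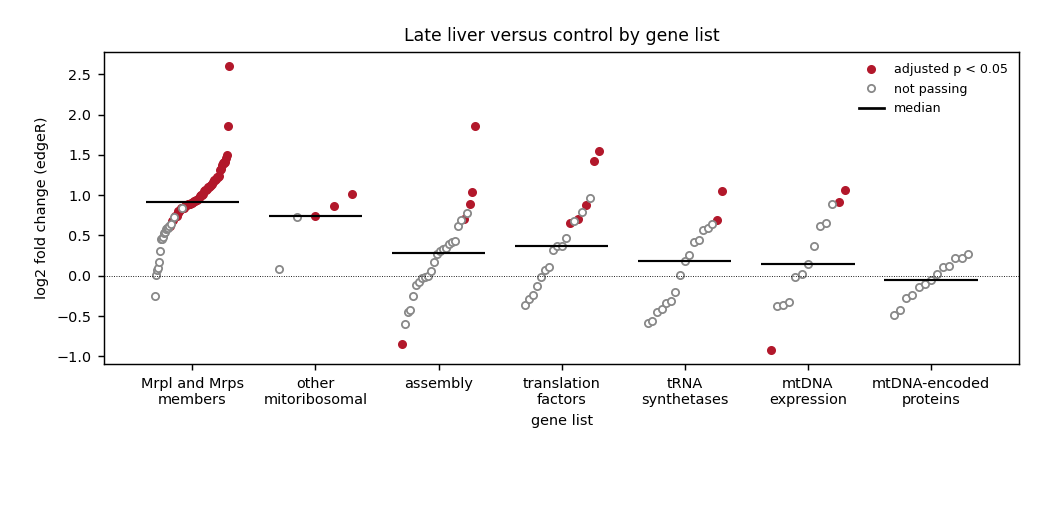
Log2 fold change of late liver over control (y axis) for the members and 6 related gene lists (x axis), with 1 point per tested gene, filled where adjusted p is under 0.05, and a line at each median. The median lies at 0.91 for the members and between 0.14 and 0.74 for the lists of nuclear-encoded genes. It lies at -0.05 for the messages encoded by mitochondrial DNA.

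RefSeq promoters (GRCm38.p6, 250 bases before to 50 after the start) were found for 69 members, with 75 promoters in all. They were searched on both strands for motifs chosen from the known regulation of nuclear mitochondrial genes. The ETS core CCGGAAG, the site class of the GA-binding protein, was in 34.7% of member promoters, against 16.3% of promoters of tested coding genes and 8.86% of all promoters. The NRF1 motif, GCGCA and GCGC with any 1 base between them, was in 17.3%, against 9.14% and 4.6%, and the YY1 motif AAGATGGCG in 10.7%, against 2.75% and 1.4%. The E-box CACGTG was at 9.33% against 9.34% of tested coding genes. The GC box GGGCGG, at 52%, and TATAAA, at 6.67%, were below the 58.2% and 8.29% of tested coding genes. At least one of ETS, NRF1 and YY1 was present in 41 of 69 members. Members with and without an ETS core had median late liver changes of 0.93 and 0.90.

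The promoters of the 3 members with the largest increases and of Mrpl24, whose gene sum did not change detectably, are printed below. They cover the 250 bases before the start and set the strongest and the flattest change of gene sums side by side. Between control 1 and late liver 1, Mrpl24 transcript 203 went from 3099 to 570 estimated counts and transcript 202 from 1822 to 2604. Capitals mark ETS and NRF1 motifs on either strand.
Mrps6 promoter, chr16:92058086-92058335, plus strand: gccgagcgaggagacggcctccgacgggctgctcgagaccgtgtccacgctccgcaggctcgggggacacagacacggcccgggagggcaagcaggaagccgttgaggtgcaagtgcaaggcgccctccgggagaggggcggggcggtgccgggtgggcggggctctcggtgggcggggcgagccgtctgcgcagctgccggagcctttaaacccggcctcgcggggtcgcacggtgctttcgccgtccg
Mrpl17 promoter, chr7:105811088-105811337, minus strand: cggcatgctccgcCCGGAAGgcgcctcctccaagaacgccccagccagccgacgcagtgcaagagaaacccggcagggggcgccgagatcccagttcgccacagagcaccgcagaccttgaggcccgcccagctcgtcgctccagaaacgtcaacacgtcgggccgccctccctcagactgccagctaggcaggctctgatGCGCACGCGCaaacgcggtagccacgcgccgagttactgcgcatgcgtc
Mrpl12 promoter, chr11:120484387-120484636, plus strand: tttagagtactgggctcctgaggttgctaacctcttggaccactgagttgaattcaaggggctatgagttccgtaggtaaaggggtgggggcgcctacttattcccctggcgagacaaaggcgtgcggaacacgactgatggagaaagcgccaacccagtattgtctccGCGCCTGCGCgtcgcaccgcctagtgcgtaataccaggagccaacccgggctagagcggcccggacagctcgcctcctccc
Mrpl24 promoter, chr3:87919294-87919543, plus strand: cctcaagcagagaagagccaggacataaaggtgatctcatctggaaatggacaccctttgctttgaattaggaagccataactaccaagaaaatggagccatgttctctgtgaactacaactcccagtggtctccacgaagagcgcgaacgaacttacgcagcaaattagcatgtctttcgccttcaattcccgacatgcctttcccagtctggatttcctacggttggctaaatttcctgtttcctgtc
Mrpl17 carried an ETS core 237 bases and an NRF1 motif 49 bases before the start, and Mrpl12 an NRF1 motif 81 bases before it. Neither Mrps6 nor Mrpl24 had ETS, NRF1 or YY1 letters in this window.

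A coding gene starting on the opposite strand within 1000 bases was found for 18 of 78 members, or 23.1%, against 9.71% of 13886 tested coding genes. Of 17 such neighbours that were tested, 3 rose and 3 fell in late liver, near the 19.9% and 14.3% of all tested genes, with a median log2 change of 0.09, where their partners had a median of 0.90. The examples named here were chosen after their values were seen. Ska3 and Ncapd2, both needed for mitosis, rose by 4.68 and 3.0 beside Mrpl57 (1.0) and Mrpl51 (1.22). Pnpla7, a lysophospholipase gene, fell by 2.04 on the log2 scale beside Mrpl41, which rose by 1.05. Sars2, the mitochondrial seryl-tRNA synthetase gene that starts 172 bases from Mrps12, was at 0.59 (edgeR adjusted p = 0.0829).

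Some members share sequence with other annotated genes, and their counts then depend on how reads were divided. Over all 31-base words of each member's transcripts, 25 members shared under 1% with another gene and 26 more than 10%. The highest shares were 84.4% for Mrpl53, 73.8% for Mrps34 and 68.9% for Mrps25, mostly with overlapping or readthrough models. Among the members described above, Mrpl27 shared 38.9%, Mrpl24 26.9%, Mrpl47 25.8%, Mrpl41 21.1%, Mrps36 21.0%, Mrps6 18.4%, Mrps18c 18.4%, Mrps18b 16.7%, Mrps24 16.3%, Mrpl23 14.1%, Mrpl45 13.2% and Mrpl51 10.8%, and their values are uncertain to that extent. Mrpl12, at 8.4%, was below 10%.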

How the data were processed

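Low-input bulk RNA was sequenced from sorted TCR Tg101. Per the labels, the authors used bcl2fastq and kallisto (mm10/GRCm38, versions not given) and deposited estimated counts and TPM per transcript for 26 runs of 15 libraries. The 1 oligo-dT control library was not used here, which left 25 runs of 14 libraries. Depths were 22918996 to 71358287 estimated counts.

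Transcripts were matched to GENCODE vM21 (116710 of 118783, holding 99.0% to 99.3% of counts). Whether the authors used this annotation is not given in the sources used here. Estimated counts were summed per gene and over the runs of a library, and rounded. The count minimum was 10 in 6 or more libraries, and genes above it were tested with edgeR 4.0.16 (R 4.3.3; TMM scaling, group and series terms, robust quasi-likelihood test, 6 residual degrees of freedom, Benjamini-Hochberg threshold 0.05, prior count 2). The code was tested on simulated data. All 14 libraries entered each fit. Groups with 1 library borrow their spread from the others. TPM served only for levels between genes.

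Members and gene lists were chosen with earlier results of these data known. Named members were the 10 largest and 5 smallest late liver changes, the 3 highest and 3 lowest TPM in controls, and 13 members of known position or role. From other lists, up to 4 called genes with the largest change were named, and all 5 mitoribosomal proteins with other names. Values of 1 gene named by this rule are not reported here. Alternatives were DESeq2 1.42.0, other scalings, no series term, no filter, other library choices, the first run, counts scaled from TPM, coding transcripts only and leaving out each library. Figures used Python 3.11.15 and matplotlib 3.10.9.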

Additional observations from a re-analysis of the deposited data

How the results depend on the processing

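Calls of members in late liver (60) fell to 30 with total counts only, to 23 with no series term and to 0 with XC libraries only, and leaving out 1 library gave 0 to 68. In mid liver (55) no series term gave 3, XC libraries only gave 0, and leaving out 1 library gave 0 to 63. With no count filter, early liver gave 3 calls, day 14 spleen 1 and mid liver against day 14 spleen 1, and leaving out 1 library moved early liver between 0 and 18. With total counts only, the median of all genes shifted to -0.35 in late and -0.28 in mid liver, and the members stayed 0.96 and 0.91 above it. Among the members named by the rule above, only the 5 smallest values changed sign in late liver. Outside that rule, Mrpl3 and Mrps26 changed sign with coding transcripts only, to -0.73 and -0.21. With total counts only, Mrpl58, Mrpl9, Mrpl38 and Mrpl24 were at -0.13, -0.21, -0.24 and -0.30, and with XC libraries only at -0.18, -0.22, -0.43 and -0.36. With counts scaled from TPM, Mrpl38, Mrpl24 and Mrpl23 were at -0.15, -0.036 and 0.57. With coding transcripts only, chosen after the data were seen, Mrpl9, Mrpl24 and Mrpl23 were at -0.021, -0.025 and 0.75. Mrpl24 was at -0.039 with the first run only and at -0.012 with 11 libraries. Leaving out 1 library gave -0.15 to 0.37 for Mrpl58, -0.13 to 0.32 for Mrpl9, -0.30 to 0.50 for Mrpl38, -0.24 to 0.29 for Mrpl24 and -0.70 to 0.24 for Mrpl23. The cause of these shifts was not tested. No paired analysis was possible because the numbers in the labels name libraries and are not shared between groups. The counts of calls in this section stand without the share of all genes called, so a loss of calls need not be particular to the members. Groups of 1 to 3 libraries limit every comparison.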
